A study of Homo sapiens with 4 samples.

Results

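The 9 genes SOX2, SOX4, SOX9, SOX11, POU3F2, OLIG2, NES, PROM1 and CD44 mark neural stem cells, glial precursors or glioma stem-like cells. They were taken by symbol, after the Ensembl IDs of the count tables had been matched to the GENCODE 29 annotation, and all 9 were found among the 58213 gene IDs shared by the 4 tables. RNA-seq was available for 4 libraries of U87MG, an established human glioblastoma cell line. Parental U87MG cells had received a non-targeting control siRNA (si-NC) or an siRNA against the long non-coding RNA LINC00461 (si-LINC00461). R-U87MG cells, a derivative of U87MG that is resistant to the alkylating drug temozolomide (TMZ) and that the study kept in medium with TMZ, had received si-NC or an siRNA against the deacetylase gene HDAC6 (si-HDAC6). How far R-U87MG is 1 clone or a mixed culture is not stated in the sources used here, and all 4 libraries come from the 1 line.

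Each condition had 1 library, so no difference between conditions has a replicate check and no p-value is given. Every interval was computed from the fragments counted, at the 95% level, by the exact binomial method of Clopper and Pearson, and covers counting error only. Fragments assigned to genes numbered 20027866 (U87MG si-NC), 17777046 (U87MG si-LINC00461), 16639551 (R-U87MG si-NC) and 12596072 (R-U87MG si-HDAC6). A gene with 3 fragments or fewer in a library was taken as at the floor of detection, which corresponded to 0.150 to 0.238 counts per 1000000 fragments (CPM). The targeted transcripts were lower in the libraries labelled with their siRNAs. HDAC6 had 296 fragments in R-U87MG si-NC and 67 in R-U87MG si-HDAC6, and LINC00461 had 363 in U87MG si-NC and 73 in U87MG si-LINC00461.

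SOX2, SOX4, SOX9 and SOX11 encode transcription factors that bind DNA through a shared fold, the HMG box. SOX2 maintains neural stem cells, SOX9 acts in neural stem cells and in the astrocyte lineage, and SOX4 and SOX11 are closely related factors of neural progenitors and young neurons. POU3F2 (BRN2) is a POU-domain factor and OLIG2 a basic helix-loop-helix factor of oligodendrocyte and motor neuron precursors. Together with SOX2 and SALL2 they are known as core factors of stem-like glioblastoma cells. NES encodes nestin, an intermediate filament protein of neural progenitors. PROM1 (CD133) and CD44, the receptor of hyaluronan, are surface proteins used to sort stem-like glioma cells, and CD44 is also a marker of the mesenchymal state of glioblastoma.

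The 4 SOX members are alike enough in sequence that their fragments could in principle be confused, so a 60-base coding stretch of the HMG box is shown for each. Capitals mark the 40 positions of 60 that were identical in all 4 genes, and the stretches were read from GENCODE 29 transcripts on the plus strand of GRCh38.
SOX2 (chr3:181712637-181712696, exon 1 of 1): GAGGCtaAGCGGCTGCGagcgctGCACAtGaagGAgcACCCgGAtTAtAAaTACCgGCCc
SOX4 (chr6:21594865-21594924, exon 1 of 1): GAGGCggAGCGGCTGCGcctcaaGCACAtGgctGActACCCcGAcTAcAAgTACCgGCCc
SOX9 (chr17:72122756-72122815, exon 2 of 3): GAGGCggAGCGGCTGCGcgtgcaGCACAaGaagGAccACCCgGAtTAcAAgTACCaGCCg
SOX11 (chr2:5693022-5693081, exon 1 of 1): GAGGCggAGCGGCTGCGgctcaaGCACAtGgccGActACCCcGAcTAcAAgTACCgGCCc
SOX4 and SOX11 were identical at 96.7% of these bases, SOX2 and SOX9 at 81.7%, and SOX2 and SOX4 at 71.7%. The likeness was not long, since 0 stretches of 50 bases were shared between any of the members. No stretch of 50 bases in SOX4, SOX9, POU3F2, OLIG2, NES or CD44 occurred in another annotated gene, whereas 2.03% of the stretches of SOX2, 0.288% of SOX11 and 0.911% of PROM1 did. The other gene was most often SOX1 for SOX2, and SOX1 had 0 fragments in all 4 libraries. Antisense genes share exon positions with members, AL512380.2 with SOX4 and CD44-AS1 with CD44, and they had at most 1 fragment in any library.

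The 9 genes differed widely in level, and the order at the top was nearly the same in the 4 libraries. CD44, which lies on the plus strand at chr11:35138870-35232402, stood far above the others. Per kilobase of exon, its level was 160.3 CPM in U87MG si-NC, 172.8 in U87MG si-LINC00461, 177.0 in R-U87MG si-NC and 170.8 in R-U87MG si-HDAC6. These values lay above 99.1% to 99.3% of the protein-coding genes detected in each library. The per-kilobase level of CD44 rests on the union of 21 exon blocks from 39 annotated transcripts, 10004 bases in all, and would be higher over its longest transcript of 5732 bases.

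SOX9 (plus strand, chr17:72121020-72126420) came next in each library. Its per-kilobase levels were 8.26 CPM in U87MG si-NC, 15.1 in U87MG si-LINC00461, 10.4 in R-U87MG si-NC and 11.4 in R-U87MG si-HDAC6. NES (minus strand, chr1:156668763-156677397) followed at 7.67, 7.74, 6.74 and 6.30 CPM per kilobase in the same order of libraries. SOX9 and NES had overlapping counting intervals in U87MG si-NC and separate ones in the other 3 libraries. SOX4 came after NES in 3 libraries, with per-kilobase levels of 0.998, 3.66 and 1.69 CPM in U87MG si-NC, U87MG si-LINC00461 and R-U87MG si-NC. In R-U87MG si-HDAC6, OLIG2 at 2.72 CPM per kilobase lay above SOX4 at 1.56, and in R-U87MG si-NC these genes did not differ beyond their intervals.

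**Figure D1:**
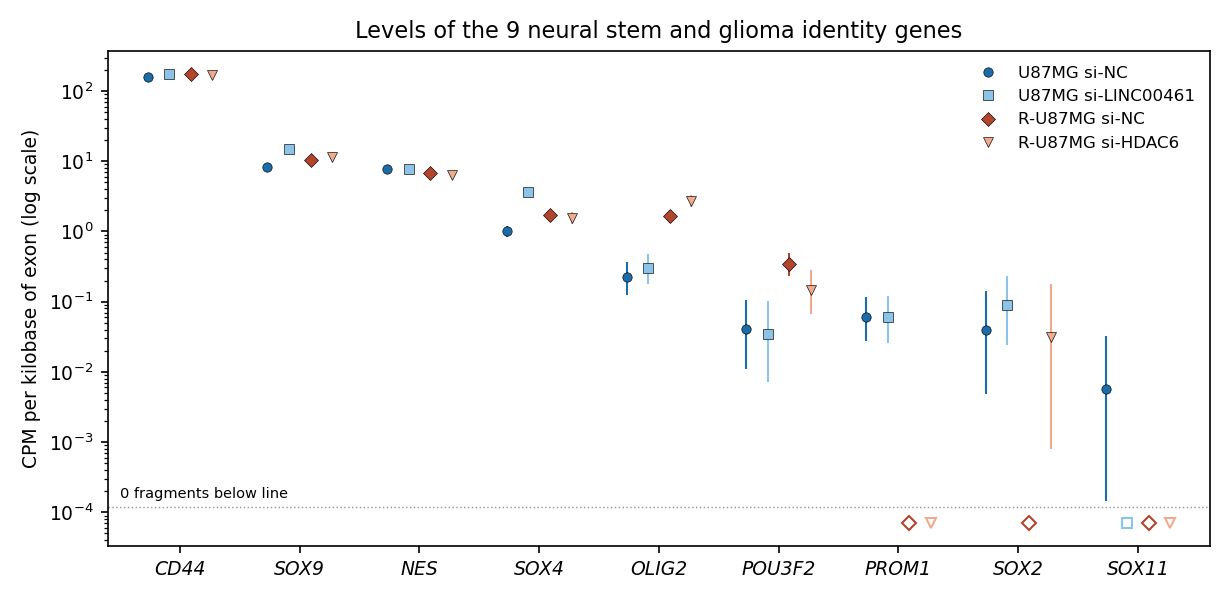
Level of each of the 9 genes in each library, as CPM per kilobase of exon on a log axis. Each point is 1 library with its 95% counting interval, and open symbols under the dotted line are libraries with 0 fragments. CD44 sat between 160.3 and 177.0, and SOX2, SOX11 and PROM1 had at most 9 fragments in any library.

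The remaining members were scarce or not detected. SOX2, the factor for which neural stem cells are best known, had 2 fragments in U87MG si-NC, 4 in U87MG si-LINC00461, 0 in R-U87MG si-NC and 1 in R-U87MG si-HDAC6. SOX11 had 1 fragment in U87MG si-NC and 0 in each of the others. PROM1 had 9 fragments in U87MG si-NC, 8 in U87MG si-LINC00461 and 0 in both R-U87MG libraries. The members thus split, since SOX9, NES and SOX4, which neural progenitors also use, had 100 fragments or more in every library, while SOX2, SOX11 and PROM1 go against the name of the gene group. At this depth a level under the floor could not be told from absence. The long non-coding gene SOX2-OT, in whose intron SOX2 lies, had 0 to 3 fragments per library. PROM1 and FGFBP2 share 166 exon bases on 1 strand, and FGFBP2 had 7 fragments in U87MG si-NC and 3 in U87MG si-LINC00461, so part of the few PROM1 fragments there is uncertain.

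The first comparison asked how the genes stood after HDAC6 was depleted in the resistant line. Of the 9 members, 6 passed the filter on low values, a CPM of 1 or more on average over the pair. Of these, OLIG2 was higher by less than 2-fold, POU3F2 was lower by more than 2-fold, and SOX4, SOX9, NES and CD44 were within 0.13 of 0 on the log2 scale. Log2 ratios were taken of fragments plus 0.5 over the effective library size (TMM normalization), with the siRNA library over si-NC, and a ratio of at least 2-fold was counted as changed. Over all 13120 genes of this pair that passed it, 0.694% were at least 2-fold higher and 0.747% at least 2-fold lower. In bulk RNA, fewer cells that express a gene and less RNA per cell cannot be told apart, here and in all comparisons that follow.

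POU3F2 had 28 fragments in R-U87MG si-NC, or 1.68 CPM, and 9 in R-U87MG si-HDAC6, or 0.715 CPM. The log2 ratio was −1.19 with an interval from −2.51 to −0.12, so the counts also allow a difference well under 2-fold. POU3F2 passed the filter on low values only through the library in which it was high, so nothing can be read from its being 1 member of the 6. Among the POU class 3 and 5 factors it was the only gene of 5 above the floor. POU3F1 and POU3F4 each had 1 fragment, in U87MG si-NC, and POU3F3 and POU5F1 had none.

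Because POU3F2 was the only member past the threshold here, the 250 bases before its RefSeq start are shown (plus strand, GRCh38.p14, chr6:98834324-98834573, ending 19 bases before the start of the gene in GENCODE 29). Capitals mark GGGCGG, the GC box, and CCAAT, the CCAAT box, each searched on both strands.
POU3F2: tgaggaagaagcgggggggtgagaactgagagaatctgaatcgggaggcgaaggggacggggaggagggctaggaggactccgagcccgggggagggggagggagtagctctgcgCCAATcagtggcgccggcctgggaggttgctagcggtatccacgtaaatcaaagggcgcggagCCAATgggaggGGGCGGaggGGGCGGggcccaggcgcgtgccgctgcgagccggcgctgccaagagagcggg
Each motif occurred 2 times and none overlapped another. In RefSeq windows of 300 bases around 35097 starts, 44.9% held GGGCGG and 34.6% held CCAAT. These are matches of letters and not measured binding sites.

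OLIG2 had 92 fragments in R-U87MG si-NC and 115 in the smaller library of R-U87MG si-HDAC6, or 5.53 and 9.13 CPM. The log2 ratio was 0.71 with an interval from 0.31 to 1.13, a 1.64-fold difference, with 98.2% of ratios in the pair below it. SOX9 had 679 and 565 fragments, or 40.8 and 44.9 CPM (log2 ratio 0.13, interval −0.04 to 0.29). SOX4 had 165 and 115 fragments, or 9.92 and 9.13 CPM (log2 ratio −0.13, interval −0.49 to 0.22). For both SOX genes the interval held 0.

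NES had 623 fragments in R-U87MG si-NC and 441 in R-U87MG si-HDAC6, with a log2 ratio of −0.11 and an interval from −0.29 to 0.07. CD44 had 29460 and 21526 fragments, or 1770.5 and 1709 CPM. Its log2 ratio was −0.06, and the large counts put it in a narrow interval from −0.09 to −0.04, below 0. The interval left out 0 for 30.3% of all genes compared in this pair.

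The second comparison asked the same of the depletion of LINC00461 in parental U87MG cells, and here both expressed SOX members were higher. The study lists 1 siRNA sequence against LINC00461, so effects of that sequence and of the depletion cannot be told apart. Only 4 members passed the filter on low values. SOX4 was higher by more than 2-fold and SOX9 by somewhat less, while NES and CD44 differed little. The background in this pair was wider, with 5.42% of 13210 genes at least 2-fold higher and 8.17% at least 2-fold lower. The member count past 2-fold, 1 of 4, is too small to set against that background.

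SOX4, a gene of 1 exon at chr6:21592768-21598619 on the plus strand, had 117 fragments in U87MG si-NC and 381 in U87MG si-LINC00461, or 5.84 and 21.4 CPM. The log2 ratio was 1.89 with an interval from 1.59 to 2.20, a 3.70-fold difference, which ranked 178 from the top among the genes compared. U87MG si-LINC00461 also had the highest SOX4 level of the 4 libraries, with an interval that met none of the others. SOX9 had 651 and 1053 fragments, or 32.5 and 59.2 CPM. Its log2 ratio was 0.88 with an interval from 0.74 to 1.02, a 1.84-fold difference, with 93.1% of ratios in the pair below it.

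NES had 854 fragments in U87MG si-NC and 765 in U87MG si-LINC00461, which is 42.6 and 43.0 CPM and a log2 ratio of 0.03 with an interval from −0.11 to 0.17. CD44 had 32126 and 30726 fragments, or 1604 and 1728 CPM. The log2 ratio of CD44 was 0.12 with an interval from 0.10 to 0.15. In this pair 66.45% of all genes compared had an interval that left out 0. OLIG2 had 15 and 18 fragments, too few for the filter, and its log2 ratio of 0.44 had an interval from −0.62 to 1.54. POU3F2 had 4 and 3 fragments and was not compared.

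**Figure D2:**
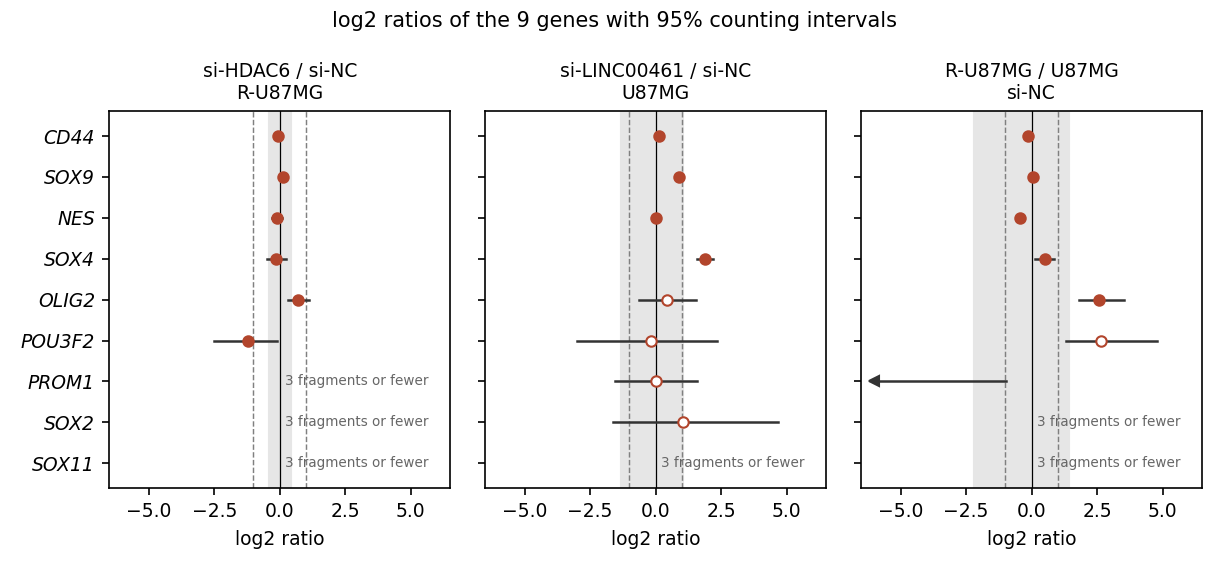
Log2 ratios of the 9 genes in the 3 comparisons, with 95% counting intervals as bars. Filled points passed the filter on low values, open points did not, the grey band holds 5% to 95% of all genes compared, dashed lines mark 2-fold, and an arrow marks a gene at 0 in 1 library. SOX4 after si-LINC00461 and OLIG2 in R-U87MG against U87MG lay at 1.89 and 2.58, above the band.

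The third comparison set the control libraries of the lines side by side, R-U87MG si-NC over U87MG si-NC. It uses the same control libraries as the other comparisons, and the line, the TMZ in its medium and the library pair cannot be told apart in it, since the sources used here do not say whether the pairs were cultured, prepared or sequenced together. OLIG2, a gene of 1 exon block at chr21:33025845-33029196 on the plus strand, was the member with the largest ratio among the 5 that passed the filter. It had 15 fragments in U87MG si-NC, 18 in U87MG si-LINC00461, 92 in R-U87MG si-NC and 115 in R-U87MG si-HDAC6, so both R-U87MG libraries lay above both U87MG libraries and the intervals of the lines did not meet. The log2 ratio between the controls was 2.58 with an interval from 1.82 to 3.51, or 5.98-fold, which ranked 120 from the top. Over 13349 genes, 11.2% were at least 2-fold higher in R-U87MG and 15.0% at least 2-fold lower. OLIG2 passed the filter only through the R-U87MG library, so its being 1 of 5 members is no measure of the group.

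POU3F2 showed the same order at lower counts, with 28 and 9 fragments in the R-U87MG libraries against 4 and 3 in the U87MG libraries. Its mean CPM of 0.941 in the control pair was just under the filter. The log2 ratio was 2.67 with an interval from 1.30 to 4.78. The interval of R-U87MG si-HDAC6 met those of the U87MG libraries, so only R-U87MG si-NC stood apart from them. PROM1 went the other way, with 0 fragments in R-U87MG si-NC and 9 in U87MG si-NC. With the absent value set to the floor of 3 fragments, PROM1 was 2.99-fold higher in U87MG. That figure takes the 9 fragments as exact and as belonging to PROM1. FGFBP2, which shares 166 exon bases with PROM1, had 7 fragments in U87MG si-NC and 0 in R-U87MG si-NC. The counting interval of the log2 ratio ended at −0.98, so the counts also allow a difference just under 2-fold.

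The more abundant members differed less between the lines. SOX4 was 9.92 CPM in R-U87MG si-NC and 5.84 in U87MG si-NC, a log2 ratio of 0.50 with an interval from 0.15 to 0.85. SOX9 was at 40.8 and 32.5 CPM, with a log2 ratio of 0.06 and an interval from −0.09 to 0.22. NES was lower in R-U87MG, at 37.4 CPM against 42.6, with a log2 ratio of −0.45 and an interval from −0.60 to −0.30. The CPM values rest on library totals and the ratios on TMM scaling. With library totals the log2 ratios were 0.33 for SOX9 and −0.19 for NES, both outside these intervals. Of all genes compared between the lines, 78.2% had an interval that left out 0. CD44 had a log2 ratio of −0.12 (interval −0.14 to −0.10) with TMM scaling and of 0.14 with library totals, so its direction depends on the scaling. Library totals moved the median of all genes by 0.26 on the log2 scale in this pair, and the share of the called genes that were higher went from 42.7% to 61.6%. Of the genes of the lists described below, ADAM10, CSPG4, LINC00461 and NFIB were then no longer 2-fold lower, and genes that became 2-fold higher included CDK1, MAP2, PAX6 and PLK1.

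**Figure D3:**
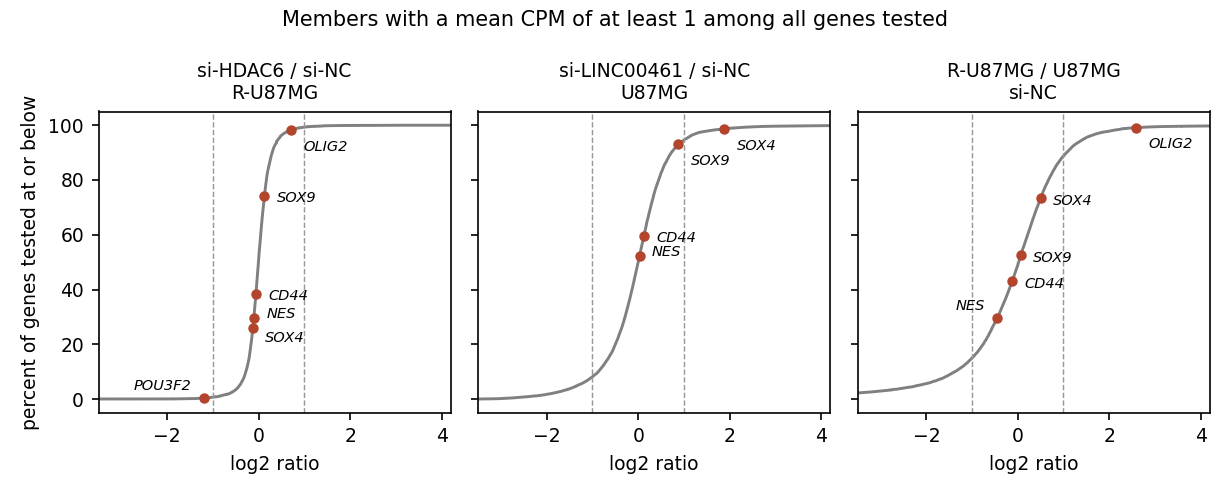
Cumulative distribution of the log2 ratios of all genes that passed the filter on low values in each comparison (grey line, percent of genes at or below each ratio), with the members marked as points and 2-fold as dashed lines. OLIG2 in R-U87MG against U87MG and SOX4 after si-LINC00461 lay above 99.1% and 98.7% of genes, and CD44 and NES lay in the middle part in each comparison.

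Within the wider SOX family of 19 genes, 9 were at or under the floor throughout. These 9 include the 4 with no fragment in any library (SOX1, SOX8, SOX14 and SOX21). In each comparison 6 of the 19 were compared. SOX2 was among those above the floor in a library but too scarce for the filter. Among the family's summed level per kilobase, SOX12, another close relative of SOX4 and SOX11, held the largest share in 3 libraries, with 45.9% in U87MG si-NC, 51.5% in R-U87MG si-NC and 45.4% in R-U87MG si-HDAC6. SOX9 held 30.2%, 32.5% and 35.9% in these libraries. In U87MG si-LINC00461 the order was turned, with 43.2% for SOX9, 29.2% for SOX12 and 10.5% for SOX4, whose share in U87MG si-NC was 3.65%.

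After si-LINC00461, the family members moved in different directions. SOX4 was the only one of the 6 that passed 2-fold. SOX5 and SOX13, factors of the SoxD group, had log2 ratios of 0.85 (interval 0.62 to 1.09) and 0.51 (0.25 to 0.77), whereas SOX12 had −0.29 (−0.42 to −0.16) and SOX15 −0.75 (−1.33 to −0.21). After si-HDAC6 none of the 6 passed 2-fold, beside 0.694% higher and 0.747% lower over all genes of the pair. The median of the 6 was 0.12. Between the lines SOX5 and SOX15 were lower in R-U87MG, with log2 ratios of −2.21 and −1.37.

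**Figure D4:**
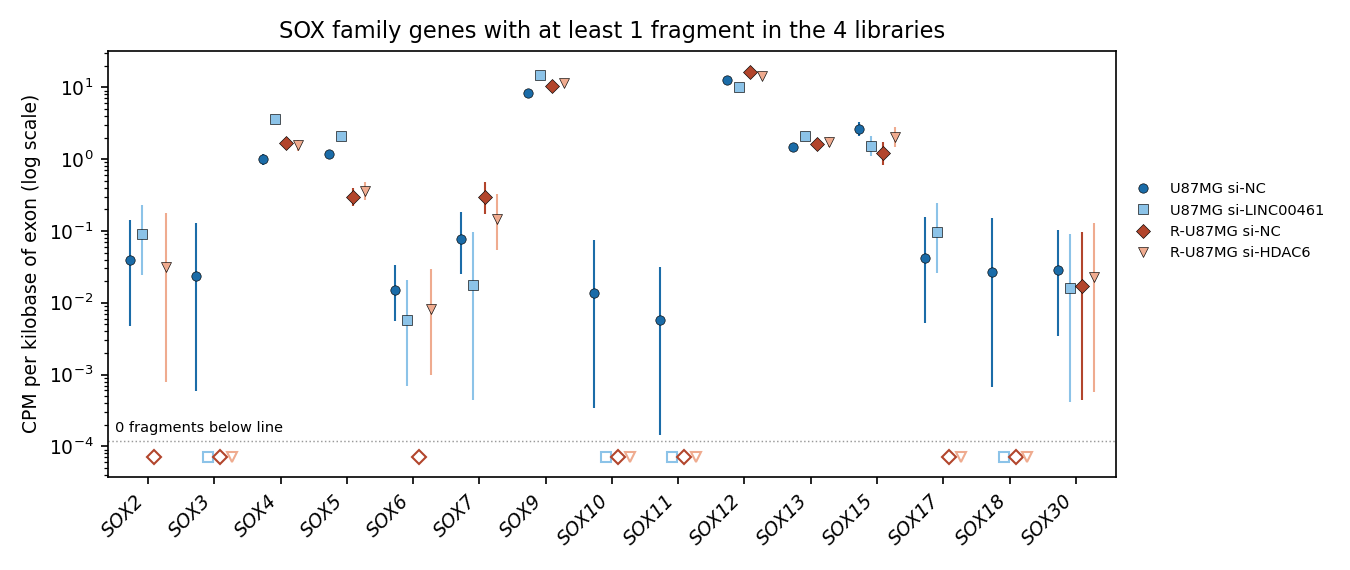
Levels of the SOX family genes with at least 1 fragment, as CPM per kilobase of exon on a log axis, by library, with 95% counting intervals and open symbols for 0 fragments. SOX12 and SOX9 were the highest in all 4 libraries, and SOX5 was lower in both R-U87MG libraries than in both U87MG libraries.

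Relatives of OLIG2 were all but absent. Of 11 basic helix-loop-helix factors, 10 were at or under the floor in the 4 libraries, OLIG1 and OLIG3 had 0 fragments throughout, and OLIG2 was the only one compared. Other defining genes of the oligodendrocyte lineage were missing too. SOX10 had 1 fragment in all, in U87MG si-NC, and NKX2-2 and MOG had none. The summed CPM of the 12 lineage markers was 378.3 and 400.1 in the R-U87MG libraries and 572.4 and 394.8 in U87MG si-NC and U87MG si-LINC00461, most of it from CSPG4 and CNP. PDGFRA, the receptor of oligodendrocyte precursors, had 62 fragments in U87MG si-NC and 961 in U87MG si-LINC00461 (log2 ratio 4.13) and was also higher in R-U87MG (1.18). CSPG4 was lower in both of these comparisons (−1.28 and −1.23, the second being −0.97 with library totals), and MBP was lower in R-U87MG (−1.70). MBP, at 1.85 CPM in U87MG si-NC and 0.661 in R-U87MG si-NC, passed the filter only through the U87MG library.

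Of 27 other regulators of neural stem cells, 19 were compared after si-HDAC6 and none passed 2-fold. Over all genes of that pair, only 0.694% were at least 2-fold higher and 0.747% lower. At such shares, none in a list of this size says little about the list. HMGA2 had the highest level per kilobase of them in all 4 libraries, followed by SALL1 in the U87MG libraries and by MYC in the R-U87MG libraries. After si-LINC00461, 6 of 20 were at least 2-fold lower and none higher, beside 8.17% lower and 5.42% higher over all genes of the pair. These were KLF4 (log2 ratio −3.40), MYC (−2.10), MSI2 (−1.52), the histone methyltransferase gene EZH2 (−1.46), PAX6 (−1.42) and NFIX (−1.09), and the median of the 20 was −0.10. Between the lines, LIN28B (2.96), which restrains let-7 microRNAs, and EZH2 (1.39) were higher in R-U87MG. NFIX (−3.45), SALL2 (−2.45), SALL1 (−1.65) and NFIB (−1.02, or −0.76 with library totals) were lower, and SALL2, the partner of SOX2, POU3F2 and OLIG2 named above, had 8 fragments in each R-U87MG library against 46 and 49 in the U87MG libraries. At 2.30 CPM in U87MG si-NC and 0.481 in R-U87MG si-NC, SALL2 passed the filter only through the U87MG library.

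Among 10 intermediate filament genes of neural cells, NES had far fewer fragments than VIM, which encodes vimentin. VIM had 6327 CPM in U87MG si-NC and 3170 in U87MG si-LINC00461, a log2 ratio of −0.98, while NES was at 0.03 in the same pair. Between the lines NEFM was lower in R-U87MG (−3.17) and SYNM higher (1.02). NEFM, at 6.04 CPM in U87MG si-NC and 0.781 in R-U87MG si-NC, passed the filter only through the U87MG library. GFAP, the filament of astrocytes, had 5 and 13 fragments in the U87MG libraries and 0 in both R-U87MG libraries.

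Of 17 surface markers of glioma stem cells, CD44 had the highest level per kilobase in all 4 libraries, followed by CD151 in each, and LGR5 and B3GAT1 had 0 fragments. None of the 9 compared passed 2-fold after si-HDAC6, beside 0.694% higher and 0.747% lower over all genes of the pair. After si-LINC00461, ALCAM (−1.68) and CSPG4 were lower, 2 of 10, beside 8.17% of all genes of the pair. In R-U87MG against U87MG, the integrin gene ITGA6 was higher (1.98), and L1CAM (−4.02), CD24 (−1.94), MCAM (−1.55) and CSPG4 were lower. Over all genes of that pair, 11.2% were at least 2-fold higher and 15.0% at least 2-fold lower. PROM2, the relative of PROM1, had 6 to 20 fragments per library.

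CD44 itself differed little, and some genes for its ligands and partners passed 2-fold. Of 18 such genes, SPP1, MMP14 and MSN had the highest levels per kilobase. After si-LINC00461, 15 were compared, and 5 were at least 2-fold higher with none lower, beside 5.42% and 8.17% over all genes of the pair. They were CEMIP, which takes part in hyaluronan breakdown (433 and 4235 fragments, log2 ratio 3.48), the ligand genes SPP1 (1.80) and SRGN (1.30), the hyaluronidase gene HYAL2 (1.07) and MMP14 (1.05), a protease that cleaves CD44. CEMIP (2.58), SPP1 (2.57), SRGN (2.05) and the hyaluronan synthase gene HAS3 (2.24) were also higher in R-U87MG si-NC than in U87MG si-NC. HAS3, at 4.93 CPM in R-U87MG si-NC and 0.849 in U87MG si-NC, passed the filter only through the R-U87MG library. HAS1, another hyaluronan synthase gene, had 499 and 679 fragments in the U87MG libraries and 1 in each R-U87MG library (log2 ratio of the controls −8.38, interval −14.27 to −6.47). It passed the filter only through the U87MG library. ADAM10, a protease that sheds CD44, was lower in R-U87MG (−1.01), a call lost with library totals (−0.75). None of 14 genes compared after si-HDAC6 passed 2-fold, beside 0.694% higher and 0.747% lower over all genes of the pair. MSN, the membrane linker moesin, was near 0 in each comparison (−0.12 to 0.08).

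Markers of other cell types gave a mixed picture. Of 11 astrocyte markers AQP4 had no fragment, the summed CPM was 548.2 and 588.8 in the R-U87MG libraries and 1018 and 1362 in the U87MG libraries, and CLU and then GJA1 were the highest per kilobase in all 4 libraries, followed by ALDOC in the U87MG libraries and SLC1A3 in the R-U87MG libraries. APOE (1.26) and SLC1A2 (1.12) were higher after si-LINC00461, and ALDOC (−3.88) and APOE (−2.20) were lower in R-U87MG. Of 10 neuronal markers, SYP (2.67) and SNAP25 (1.12) were higher and NCAM1 (−1.42) and MAP2 (−1.17) lower after si-LINC00461, SNAP25 was lower in R-U87MG (−1.30), and TUBB3 was the highest per kilobase. The 10 neuronal markers summed to 311.3 to 370.2 CPM.

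Of 7 leukocyte markers, summed to 8.94 to 18.4 CPM, AIF1 had no fragment and CSF1R was the only one compared, with none past 2-fold. Of 7 endothelial and pericyte markers, summed to 35.9 to 57.8 CPM, PECAM1 was higher after si-LINC00461 (3.23). In these marker lists no gene passed 2-fold after si-HDAC6, beside 0.694% higher and 0.747% lower over all genes of the pair. Of 8 long non-coding genes, among them SOX2-OT and SOX9-AS1 beside SOX2 and SOX9, LINC00461 and LINC01116 were the ones with enough fragments to compare. LINC00461 was lower after its siRNA (−2.12). LINC01116 was higher in R-U87MG (1.02), and LINC00461 was lower there (−1.23, or −0.97 with library totals).

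Proliferation markers were lower in U87MG si-LINC00461, the library in which SOX4 and SOX9 were higher. Their summed CPM was 946.4 in U87MG si-NC and 170.9 in U87MG si-LINC00461, with a median log2 ratio of −2.35. In this pair 7 of 8 were at least 2-fold lower (AURKB, BIRC5, CCNB1, CDK1, MKI67, PLK1 and TOP2A), beside 8.17% of all genes. Their summed CPM was 1973 in R-U87MG si-NC and 1647 in R-U87MG si-HDAC6, where the median was −0.26. None passed 2-fold there, beside 0.694% higher and 0.747% lower over all genes of the pair. Between the lines 4 of 8 were higher in R-U87MG (AURKB, BIRC5, CCNB1 and PCNA), beside 11.2% of all genes, with a median of 1.04. With library totals CDK1 and PLK1 were at least 2-fold higher as well. SOX4 was also higher in R-U87MG (0.50). The part of proliferation in the values of the 9 genes was not tested.

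**Figure D5:**
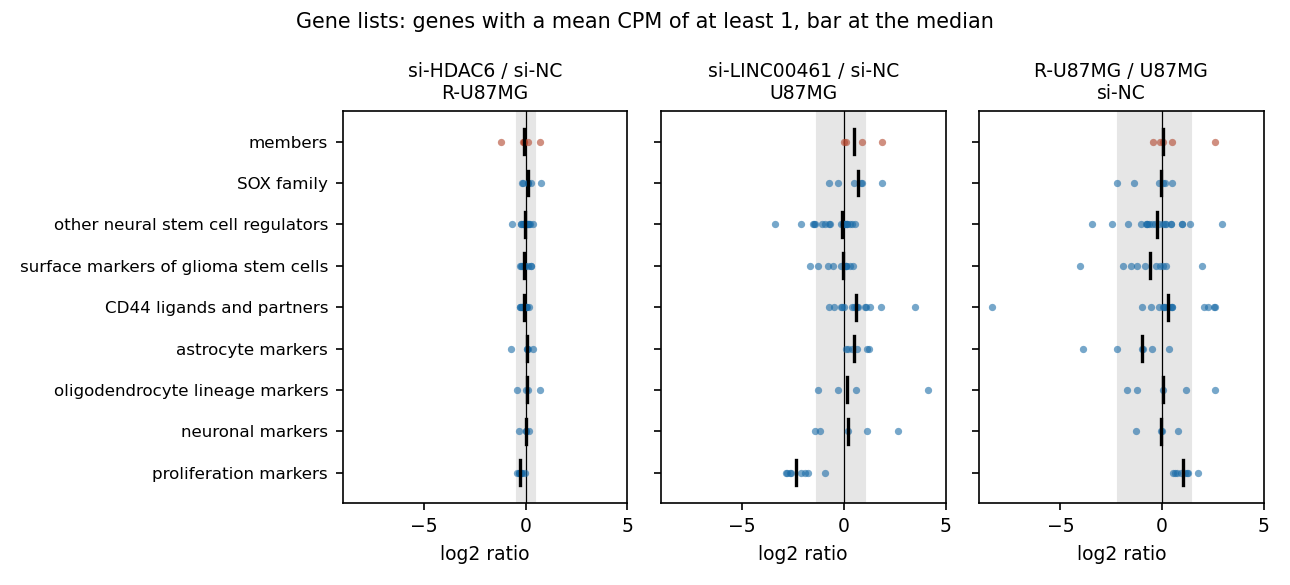
Log2 ratios of the genes of 9 lists in the 3 comparisons, for genes that passed the filter on low values. Each point is a gene, the black bar is the list's median, and the grey band holds 5% to 95% of all genes compared. After si-LINC00461 all 8 proliferation markers lay below 0, from −2.86 to −0.94, and the 4 members shown lay between 0.03 and 1.89.

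The genes with ratios most like those of a member were sought for SOX4 and SOX9, the members with the largest ratios after si-LINC00461 among those compared in all 3 pairs. Likeness was the Euclidean distance over the 3 log2 ratios, that is over 4 libraries, among 9654 protein-coding genes. RTN1, MDGA1 and TGFB3 were nearest to SOX4, at distances of 0.198, 0.296 and 0.320. KCTD13, OSTC and POM121 were nearest to SOX9, at 0.0035, 0.035 and 0.088. The 3 ratios share control libraries, so the distances describe these libraries only.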

How the data were processed

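RNA-seq of 4 libraries was performed by a service company with a strand-specific kit. Per the labels, reads were handled with bcl2fastq, Trimmomatic 0.36 and HISAT2 on GRCh38.p13, and the counting program and annotation are not given in the sources used here. Per Ensembl gene, the deposited values were taken as estimated counts of fragments scaled by a constant of the library (0.869 to 1.15). The constant was inferred here from the most frequent value above 0 and its whole multiples. The sources used here do not state it. Dividing by this constant and rounding gave the fragments used here. Of values above 0, 94.2% to 94.5% were whole to within 0.02 plus the rounding of the last printed digit. Unscaled counts had been foreseen when the comparisons were planned. Whether counting used strand is not stated, so a gene and its antisense partner may share reads. Of the IDs, 57875 have a GENCODE 29 symbol. Alignment and the division of shared fragments cannot be undone.

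Log2 ratios used fragments plus 0.5 over TMM effective library sizes (edgeR 4.0.16, R 4.3.3) of each pair, which understates changes of scarce genes, and CPM used library totals. Genes averaging a CPM of 1 or more over a pair were compared. Intervals are conditional on the fragments of both libraries, and the calculation was tested on simulated counts. The simulation held counting error only, changed only better expressed genes and centred the ratios on their median. It therefore did not test the TMM scaling or changes of scarce genes. The members and the 14 gene lists were chosen with earlier results of these data known. All 9 members are named, and so are list genes past 2-fold, the 3 highest of a list by level and relatives of members. The genes most like CD44 in their ratios are not reported here. Promoter windows came from RefSeq (GRCh38.p14), which held 6 of the 9 members. Alternatives in scaling were library totals, DESeq2 size factors (DESeq2 1.42.0), upper-quartile scaling, TMM over 4 libraries and, within a line, the authors' scaling. Others were other pseudocounts, filters and folds, random thinning of fragments to the smallest library, and the longest transcript in place of the exon union. Python 3.11.15, numpy 2.4.6, pandas 2.3.3, scipy 1.17.1 and matplotlib 3.10.9 were used.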

Additional observations from a re-analysis of the deposited data

How the results depend on the processing

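With each member ratio counted once per alternative, 155 values stayed inside the counting interval of the main ratio and 6 did not. The intervals of scarce genes are wide. SOX2 after si-LINC00461 went from 1.04 to 3.19 on thinning and still counted as inside. These 6 concerned CD44, SOX9 and NES under another scaling, and CD44 between the lines went from −0.12 to 0.14 with library totals. With library totals, 2399 genes were higher in R-U87MG, SOX9 was at 0.33 and NES at −0.19, and the median of the 5 members was 0.33. With a pseudocount of 5, 43 genes and 0 members were lower after si-HDAC6, so the POU3F2 call was lost, as it was with a filter at a mean CPM of 5. That filter left 16 genes higher and 16 lower after si-HDAC6, with 0 members lower, 442 genes higher after si-LINC00461, and 0 members higher in R-U87MG, where OLIG2 was no longer compared. Without a filter, 2464 genes were higher and 3050 lower after si-HDAC6 with 1 member higher. The counts were then 3799 and 4243 after si-LINC00461, with 2 members higher and 1 lower, and 4772 and 5793 between the lines, with 2 members higher and 3 lower, which rest on genes of few fragments. At 1.5-fold, 352 genes were higher and 330 lower after si-HDAC6 with 1 member higher (OLIG2), 1871 and 2222 after si-LINC00461 with 2 members higher, and 3077 and 3346 between the lines. Over its longest transcript, CD44 was at 279.8 to 308.9 CPM per kilobase. SOX4 after si-LINC00461 passed 2-fold under all alternatives run. No paired analysis was possible because each condition has 1 library. Depth limits the scarce members, since SOX2, SOX11 and PROM1 had at most 9 fragments in a library.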
